A study of Rattus norvegicus with 4 samples.

Results

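Transcripts of 10 genes of the cathepsin system were examined in NR8383 cells exposed to a mixed metal oxide. The set holds 8 cathepsin genes (Ctsb, Ctsc, Ctsd, Ctsh, Ctsk, Ctsl, Ctss and Ctsz), the gene of the asparagine-cutting protease legumain (Lgmn) and the gene of cystatin C (Cst3). Probes were assigned to these genes by looking up the accession on the array among the transcripts of the rat RefSeq annotation GRCr8. All 10 genes had a probe, out of 16581 genes with a symbol on the array. Cst3 encodes a secreted inhibitor and not a protease, so the set is named below as cathepsins and related genes.

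NR8383 is a rat alveolar macrophage line, derived by lavage of a healthy lung, in which some cells adhere and others float. All 4 samples belong to 1 group: NR8383 cells after 20 passages, given 9.25 µg/mL of NiZnFe2O4, whose formula names nickel, zinc and iron in an oxide, for 4 h. Each sample is a biological replicate, read on its own one-colour array after Cy3 labelling of RNA amplified from the total RNA. The design also has a control without the oxide, whose arrays were not analysed here. The values therefore describe which cathepsin transcripts exposed cells held and how far replicates differed, and none of them measures an effect of exposure. A level is a mean over all cells of a culture, in which fewer expressing cells and less RNA per cell cannot be told apart.

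Cathepsins are proteases of the endosome and lysosome. Most of them are cysteine proteases of the papain family, cathepsin D is an aspartic protease, and legumain belongs to a separate family of cysteine proteases. They are made as inactive precursors, are tagged with mannose 6-phosphate on their way to the lysosome, and are activated there at acid pH. In macrophages they digest what the cell has engulfed, cut the invariant chain and antigens for presentation, and can reach the cytosol when a lysosome is damaged, where cystatins hold them in check.

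The arrays gave between 21812 and 24981 spots well above background out of 58717 rat spots, and none of the rat spots was saturated. Levels are given as the log2 signal minus the 75th percentile of all rat probes on the same array, which was 41.6, 32.7, 23.5 and 24.8 intensity units on replicates 1 to 4. A level of 0 therefore lies close to background. A probe's brightness reflects its own sequence as well as the transcript, so no level of one gene is set against that of another. Macrophage markers bore out the labelled cell type in part: of 12 markers, 7 passed the scanner software's test for signal well above background on every array, with Cd68 at 7.13 ± 0.08, Lyz2 at 9.43 ± 0.21 and Csf1r at 0.95 ± 0.29 (SD, n = 4 each). Marco, Adgre1 and Cd163, named after their values were seen, passed on none. None of 6 granulocyte and mast cell markers measured passed on any array, the serine protease genes Elane, Ctsg and Prtn3 among them, and the list's summed signal was between 21.3 and 22.9 intensity units on an array. Of 6 lung epithelial markers 1 passed (Foxj1), of 4 fibroblast markers 1 (Dcn), of 3 lymphocyte markers 1 (Lck) and of 3 dendritic cell markers 0; these 3 genes were named after their values were seen. The summed signals of these lists were 70.2 to 98.5, 40.4 to 93.3, 37.3 to 53.8 and at most 20.9 intensity units, and their part in the results was not tested.

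Of the 10 genes, 9 passed this test on every array, against 38.7% of all genes with a symbol. The remaining gene, Ctsk, passed on no array. Each of the 10 genes had 1 probe. The probes of Ctsd, Ctsl and Cst3 were printed in 10 spots spread over the array, and those of the other 7 genes in 1 spot.

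Promoter sequence was read for the members where the RefSeq table held it, which was 9 of 10, with no entry for Ctsb. Windows of 300 bases, 250 before and 50 after the annotated start, were searched on both strands for 4 motifs: CACGTG, the longer palindrome around it known as the CLEAR element, GAGGAAGT, a form bound by the macrophage factor PU.1, and TGANTCA, the AP-1 form. CACGTG was found in 1 of 9 members, Ctsd, and in 6.42% of 33469 windows of all genes. It was found in 6 of 15 hydrolases and membrane proteins with a window. Each CLEAR palindrome also counts as a CACGTG match. GAGGAAGT was found in Ctsc and Ctss, in 1 of the 15 hydrolases and membrane proteins, and in 2.42% of all windows. The CLEAR palindrome, in 0.233% of all windows, and TGANTCA, in 7.33%, were found in no member. Of the 15 hydrolases and membrane proteins, 0 held the palindrome and 2 held TGANTCA. Forms that differ from the palindrome in some bases were not searched, so its absence covers the exact sequence only. Spi1, the gene of PU.1 and one of the macrophage markers, named after its value was seen, stood at 3.83 ± 0.29 (SD, n = 4). The stretches of 30 bases that hold a match are shown, with the match in capitals. Apart from Ctsd, Ctsc and Ctss, no member with a window held a match, which leaves out Ctsb. For CACGTG, 1 member of 9 is near what the share of 6.42% in all windows gives. The counts of members were not tested against these shares.
Ctsd, GRCr8 chr1:206968961-206968990, minus strand, match starting 157 bases before the start: tctttcttccccCACGTGactcgcatccag
Ctsd, GRCr8 chr1:206968822-206968851, minus strand, match starting 10 bases before the start: tccgcccctcgcccgcgtctCACGTGaccc
Ctsc, GRCr8 chr1:151440799-151440828, plus strand, match on the opposite strand and 248 bases before the start: taACTTCCTCaggccacaggtaattctatc
Ctss, GRCr8 chr2:185775366-185775395, plus strand, match on the opposite strand and 17 bases before the start: gaaatgaaagttcACTTCCTCgttgtggat
A match describes these letters only.

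**Figure D1:**
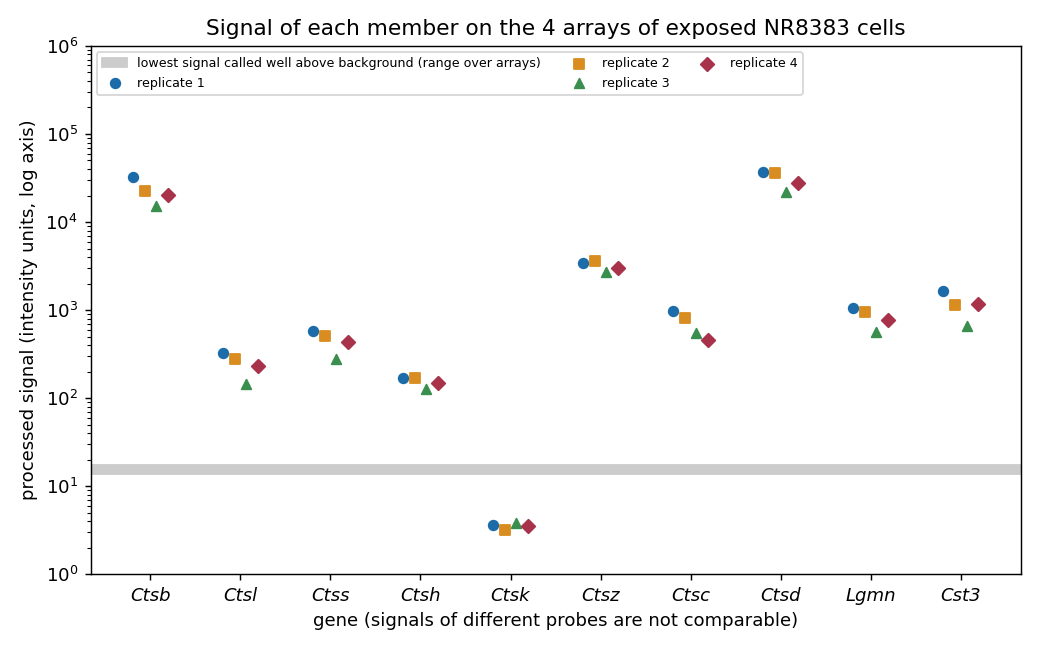
Processed signal (intensity units, log axis) of each of the 10 genes on the 4 arrays, 1 point per array and the mean of the spots where a probe had several. The grey band marks the lowest signal called well above background, 13.6 to 17.3 intensity units; the 4 Ctsk points lie below it and all points of the other 9 genes above it.

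Ctsb encodes cathepsin B, which cuts inside proteins and also removes dipeptides from their carboxyl end. Its level was 9.60, 9.41, 9.34 and 9.67 on replicates 1 to 4, with signals between 15275 and 32431 intensity units. The 4 levels lay within 1.25-fold of each other, with a mean of 9.51 ± 0.15 (SD, n = 4). Ctsl encodes cathepsin L, a strong endopeptidase that also trims other lysosomal enzymes. Its level was 2.98, 3.08, 2.63 and 3.24 on replicates 1 to 4, with a mean of 2.98 ± 0.26 (SD, n = 4). Replicate 3 was the lowest array and replicate 4 the highest.

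Ctss encodes cathepsin S, which stays active near neutral pH and makes the last cuts in the invariant chain before peptides load on MHC class II. Its level was 3.79, 3.95, 3.55 and 4.14 on replicates 1 to 4, a range of 0.58 around a mean of 3.86 ± 0.25 (SD, n = 4). As for Ctsl, replicate 3 was the lowest array and replicate 4 the highest. Cd74, the gene of the invariant chain that cathepsin S cuts, was not well above background on any array.

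Ctsk encodes cathepsin K, the collagen-cutting protease of osteoclasts. Its processed signal was 3.63, 3.14, 3.84 and 3.58 intensity units on replicates 1 to 4, where the lowest signal called well above background was 16.3, 13.6, 17.3 and 16.6. The raw spot median stood between 30 and 37 intensity units over a local background of 25 to 27. The transcript was therefore not detectable with this probe on these arrays, and only an upper bound exists. In the GRCr8 annotation Ctsk and Ctss lie close together on chromosome 2, with 1 pseudogene and 1 unnamed gene model between them, and of the pair only Ctss passed. Of 6 osteoclast markers measured 4 passed on all arrays (Calcr, Atp6v0d2, Mmp9 and Itgb3, the last 3 named after their values were seen), Acp5 passed on 3 arrays and Oscar on none. Calcr stood at 0.84 ± 0.22 and Itgb3 at -0.33 ± 0.57, close to background, Atp6v0d2 at 3.59 ± 0.50 and Mmp9 at 2.45 ± 0.41 (SD, n = 4 each). The summed signal of this list was between 393 and 959 intensity units on an array.

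The exopeptidases of the family remove residues from protein ends. Ctsh, the gene of cathepsin H, an aminopeptidase, had levels of 2.02, 2.36, 2.42 and 2.57 on replicates 1 to 4, with a mean of 2.34 ± 0.23 (SD, n = 4). Ctsz, the gene of cathepsin Z, a carboxypeptidase also called cathepsin X, had levels of 6.35, 6.80, 6.85 and 6.93, with a mean of 6.73 ± 0.26 (SD, n = 4). For both genes replicate 1 stood below the other arrays. Ctsc encodes cathepsin C, or dipeptidyl peptidase I, which takes dipeptides off and thereby activates the serine proteases of granulocytes, mast cells and cytotoxic lymphocytes. Its levels were 4.55, 4.65, 4.53 and 4.22, with a mean of 4.49 ± 0.19 (SD, n = 4). Here replicate 4 was the low array, and the other arrays lay between 4.53 and 4.65.

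Ctsd, the gene of the aspartic protease cathepsin D, had levels of 9.79, 10.09, 9.88 and 10.11 on replicates 1 to 4 and signals of 36852, 35759, 22130 and 27454 intensity units. Its mean level was 9.97 ± 0.16 (SD, n = 4), and replicates 2 and 4 lay above replicates 1 and 3. Lgmn, the gene of legumain, which cuts after asparagine and helps convert several cathepsins to their mature chain-cut form, had levels of 4.65, 4.86, 4.57 and 4.96. Its mean was 4.76 ± 0.18 (SD, n = 4) and its arrays lay within 1.32-fold of each other.

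Cst3 encodes cystatin C, a secreted inhibitor of papain-family cathepsins. Its level was 5.30, 5.11, 4.82 and 5.57 on replicates 1 to 4, with a mean of 5.20 ± 0.32 (SD, n = 4). The lowest and highest arrays, replicates 3 and 4, were 1.68-fold apart, the widest span among the 9 genes above background.

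**Figure D2:**
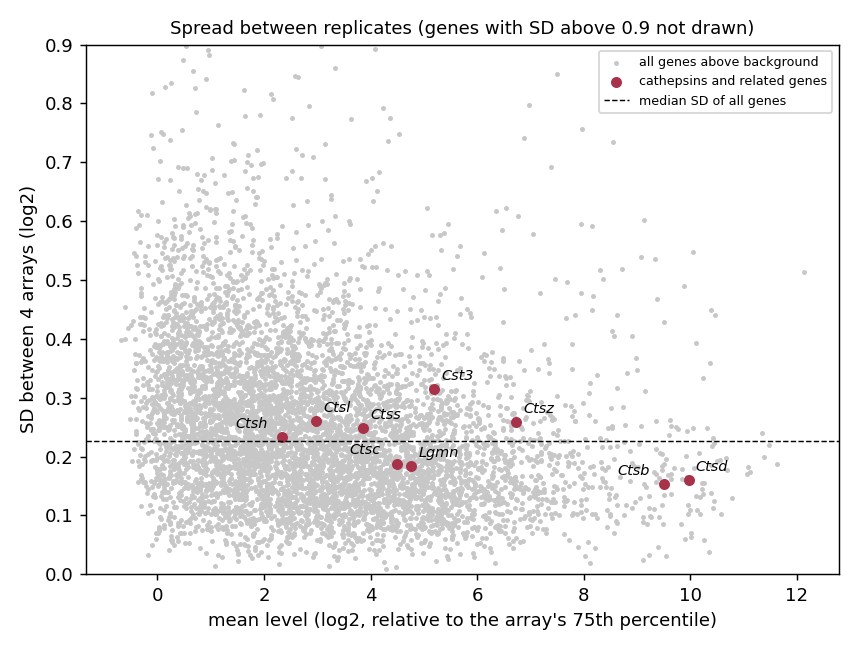
SD between the 4 arrays (log2, vertical) against mean level (log2, relative to the 75th percentile of the array) for 6418 genes above background (grey) and the 9 cathepsins and related genes (red); mean levels of different probes are not comparable. The 9 SDs run from 0.15 for Ctsb to 0.32 for Cst3 and lie on both sides of the median SD of all genes, 0.23 (dashed line).

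The SD of the 9 genes had a median of 0.23 log2 units, and the median over all 6418 genes above background was also 0.23, with 10% of these genes under 0.10 and 10% above 0.43. Of the 9 genes 5 had an SD above the median of all genes and 0 had one above 0.5, against 5.73% of all genes. Cst3 varied more than 74.1% of genes and Ctsb more than 25.7%. With this scaling the SDs of the 9 genes thus lay within the bulk of those of all genes. With normexp background correction of the median signals, the median SD was 0.28 for the members and 0.19 for all genes. By Dixon's ratio, 0 of the 9 genes had 1 array apart from the other arrays, against 4.92% of all genes.

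The 3 probes in 10 spots separated the error of a spot from the difference between arrays. The SD between spots on 1 array, pooled over arrays, was 0.08 log2 units for Ctsd, 0.09 for Ctsl and 0.08 for Cst3, and its median over all 974 such probes above background was 0.08. The SD between arrays was 1.91 times the SD between spots for Ctsd, 2.77 times for Ctsl and 4.12 times for Cst3, with a median ratio of 2.14 over the 974 probes. For Cst3 the spots of 5 of the 6 pairs of arrays did not overlap, and 11.5% of the 974 probes had at least 5 such pairs. Ctsl had 3 such pairs, where 53.0% of the probes had at least 3, and Ctsd had 2, where 69.8% had at least 2. The counts of Ctsl and Ctsd were thus common among probes of this kind. Of the 10 Ctsl spots on replicate 4 the scanner software had marked 4 as outliers, which were left out, so that 6 spots remained. Spots of 1 array share the RNA and the hybridisation, so they measure how well an array was read and are not replicates of the cells.

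**Figure D3:**
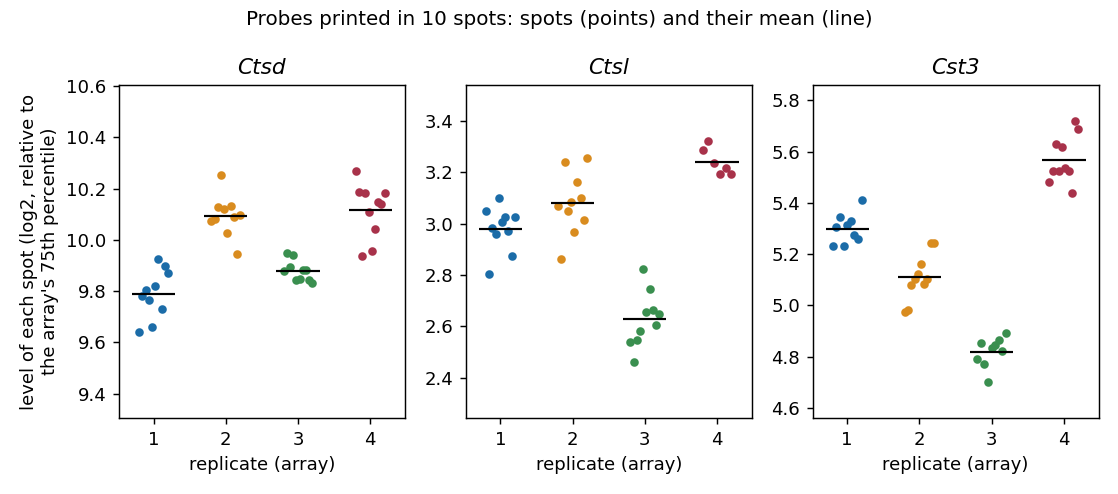
Level of each spot (log2, relative to the 75th percentile of the array) of the Ctsd, Ctsl and Cst3 probes on the 4 arrays, with the mean of the spots as a line; all panels span the same number of log2 units. The Cst3 spots of replicates 3 and 4 are farthest apart, with means of 4.82 and 5.57, and do not overlap.

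The order of the arrays was then compared among the 9 genes above background. Of them 8, all except Ctsc, were highest on replicate 4, against 37.1% of all genes. Ctsc was highest on replicate 2, as were 16.0% of all genes, and 0 members were highest on replicate 1 or replicate 3, against 22.3% and 24.5% of all genes. On replicate 3, 5 members (Ctsb, Ctsl, Ctss, Lgmn and Cst3) were lowest, against 22.4% of all genes. Ctsd, Ctsh and Ctsz were lowest on replicate 1, as were 37.4% of all genes, and Ctsc on replicate 4, as were 21.1%; 0 members were lowest on replicate 2, against 19.1%. Replicate 4 lay above replicate 3 for 8 of 9 members and for 56.0% of all genes. The 5 members lowest on replicate 3 were all highest on replicate 4, a pattern found in 7.54% of all genes. The median of the 9 deviations from the gene means was -0.07, 0.09, -0.16 and 0.20 log2 units on replicates 1 to 4, and over all genes above background it was -0.06, -0.01, 0.02 and 0.06. The genes share arrays, RNA and scaling, so their common direction is 1 observation and not 9.

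The high position of replicate 4 depended on the scaling, and the low position of replicate 3 did so less. Over 7 settings that kept all arrays, of which 5 differ in scaling or background correction, between 0 and 8 of the genes were highest on replicate 4 and between 5 and 8 were lowest on replicate 3. Without scaling, 8 were highest on replicate 1 and 8 lowest on replicate 3, and the median of all genes shifted with them, to 0.42 and -0.33. Relative to the median of all genes, the median of the members was between -0.24 and -0.15 on replicate 3 and between 0.06 and 0.15 on replicate 4 over these settings. A change of the scaling constant alone cannot move these differences, which stayed at -0.18 and 0.14. Quantile normalization gave -0.24 and 0.12, and normexp background correction -0.23 and 0.06. The values -0.15 and 0.15 came from the setting that also takes in Ctsk.

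Neighbouring spots were read beside each member, as the median deviation of other genes' single-spot probes within 5 rows and 5 columns from the other 3 arrays. On replicate 4 it was 0.26 around the Ctsb spot, 0.28 around Ctsz and 0.24 around Ctsc, and on replicate 3 it was 0.21 around Ctsz. Deviations from the other 3 arrays tend to be larger than deviations from the mean of all 4, which were used for the members. Subtraction can therefore overcorrect, and the neighbour values also hold any shift of all genes. With the neighbour values subtracted, 3 of the 9 genes (Ctsl, Lgmn and Cst3) were highest on replicate 4, and Ctss was level on replicates 2 and 4. Replicate 3 was then lowest for 5 genes (Ctsb, Ctsd, Ctsl, Ctss and Cst3), which are not the same 5 as before: Ctsd joined them, and Lgmn was lowest on replicate 1. The low Ctsc level on replicate 4 went against its neighbours, and its distance from the other arrays was wider after subtraction, with 3.98 on replicate 4 against 4.63 to 4.75. Around the Ctss and Lgmn spots the neighbours lay between -0.09 and 0.10. After subtraction Lgmn was at 4.99 on replicate 4 and 4.84 on replicate 2, and Ctss was at 4.04 on both. The part of local signal in these deviations was not tested further.

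**Figure D4:**
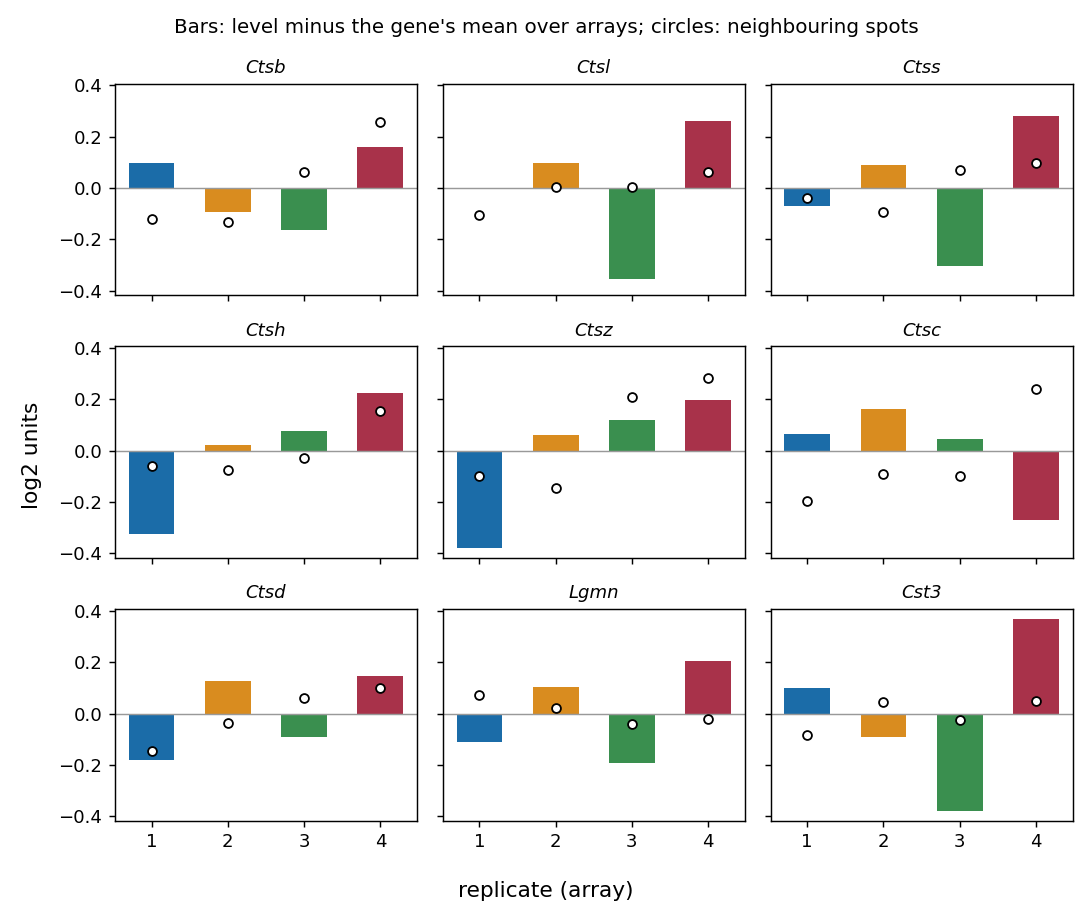
Deviation of each of the 9 genes from its own mean over arrays (bars, log2 units, 1 bar per replicate) and the median deviation of neighbouring spots from the other 3 arrays (circles). Ctsb, Ctsl, Ctss, Lgmn and Cst3 are lowest on replicate 3 and highest on replicate 4. Ctsd, Ctsh and Ctsz are lowest on replicate 1, and Ctsc alone is lowest on replicate 4.

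Ratios between 2 members on the same array do not depend on the scaling constant. Among the 36 pairs of the 9 genes, the log2 ratio ranged over the arrays by a median of 0.53, against 0.725 over all pairs of genes above background. The steadiest ratio was that of Ctsh to Ctsz, with a range of 0.10 log2 units, and 0.329% of all gene pairs were as steady. Ctsl to Ctss followed with a range of 0.12, which 0.540% of all gene pairs matched, and Ctsd to Lgmn with 0.17. These ranges are without subtraction of neighbouring spots. After subtraction Ctsh stood at 2.07, 2.44, 2.45 and 2.41 on replicates 1 to 4 and Ctsz at 6.45, 6.94, 6.64 and 6.65. The ratio of Ctsh to Ctsz then varied more between arrays, as did that of Ctsl to Ctss. The widest ratios were those of Ctsc to Cst3, with a range of 1.06 or 2.09-fold, and of Ctsz to Cst3, with 0.98 or 1.97-fold. Of the ratios of protease to inhibitor transcripts, Ctsl to Cst3 ranged by 0.30, Ctss to Cst3 by 0.35, Lgmn to Cst3 by 0.40 and Ctsb to Cst3 by 0.42, with Ctsd to Cst3 at 0.57 and Ctsh to Cst3 at 0.88. These pairs were picked out by their values, and 4 arrays of 1 group give no test of them.

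**Figure D5:**
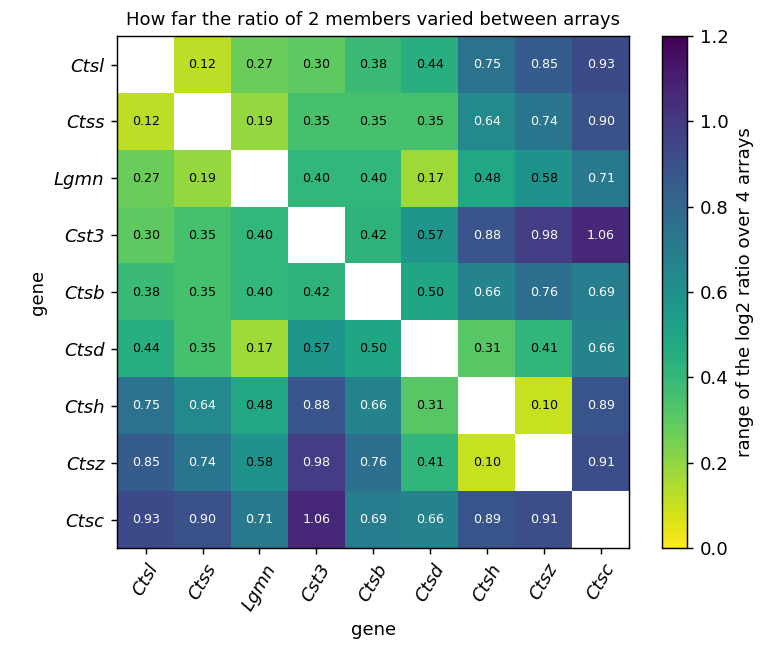
Range over the 4 arrays of the log2 ratio of each pair of the 9 genes above background, without subtraction of neighbouring spots. Yellow stands for steady and dark blue for variable ratios. Low values join Ctsl, Ctss and Lgmn, Ctsd with Lgmn, and Ctsh with Ctsz, while the row of Ctsc holds values from 0.66 to 1.06.

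The genes around the cathepsin system were then counted. Of the 11 other cathepsin genes measured 2 passed on all 4 arrays: Ctsa, the gene of the carboxypeptidase that protects lysosomal sialidase, at 7.05 ± 0.11, and Ctsf, the gene of cathepsin F, at 4.08 ± 0.45 (SD, n = 4 each). The other 9 passed on none, among them the aspartic protease gene Ctse and the granulocyte gene Ctsg, and Ctso was not analysed here. Like 5 of the 9 members and 7.54% of all genes, Ctsa was lowest on replicate 3 and highest on replicate 4. Ctsf was also highest on replicate 4 but lowest on replicate 1, at 3.70 against 3.81 on replicate 3.

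Of 9 cystatin genes measured beside Cst3, 1 passed, Cstb, which encodes the cytosolic inhibitor cystatin B. Its levels were 7.95, 7.82, 7.49 and 8.10 on replicates 1 to 4, with a mean of 7.84 ± 0.26 (SD, n = 4). Replicate 3 was the lowest and replicate 4 the highest array, as for Cst3 and for 7.54% of all genes. Cst7, which encodes cystatin F, an inhibitor that reaches the lysosome and acts on cathepsin C, and Cst6 passed on no array.

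Other lysosomal peptidase genes were mostly present, with 5 of 6 measured passing on all 4 arrays. Tpp1, a tripeptidyl peptidase, stood at 3.74 ± 0.32, Dpp7 at 6.42 ± 0.34 and the serine carboxypeptidase gene Scpep1 at 4.70 ± 0.12 (SD, n = 4 each), and Prcp, named after its value was seen, passed on 2 arrays. All 7 genes measured for mannose 6-phosphate tagging and sorting passed. The receptor genes M6pr and Igf2r stood at 5.78 ± 0.06 and 4.60 ± 0.32, and Gnptg, a subunit of the tagging enzyme, at 4.22 ± 0.22 (SD, n = 4 each). The SD of M6pr was lower than that of each of the 9 members above background, but the median SD of its list was 0.26, against 0.23 for the members.

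Of 7 genes of lysosomal transcription control 6 passed. The transcription factor genes Tfeb, Tfe3 and Mitf, whose proteins bind the sequence CACGTG and its variants in lysosomal promoters, stood at 2.01 ± 0.31, 4.25 ± 0.16 and 4.76 ± 0.29 (SD, n = 4 each). The remaining gene, Mtor, passed on 1 array. Of 7 substrates and partners of cathepsins 5 passed, with Psap, the precursor of the saposins that cathepsin D cuts, at 7.18 ± 0.48 and Grn, the progranulin gene, at 8.52 ± 0.25 (SD, n = 4 each). Of 4 galectin genes, whose products bind sugars on damaged lysosomes, 3 passed, with Lgals3 at 11.08 ± 0.18, Lgals1 at 5.13 ± 0.13 and Lgals8 at 1.38 ± 0.41 (SD, n = 4 each).

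The lysosomal hydrolases and membrane proteins gave a wider list of 21 measured genes, of which 19 passed on all 4 arrays. Hexa, which encodes a subunit of a lysosomal hexosaminidase, stood at 3.97 ± 0.42 (SD, n = 4). The median deviations of the 19 genes on replicates 1 to 4 were -0.15, 0.08, -0.06 and 0.19, against -0.07, 0.09, -0.16 and 0.20 for the 9 cathepsins and related genes. Of the 19 genes, 5 were lowest on replicate 3, against 5 of the 9 members and 22.4% of all genes. On replicate 4, 10 of the 19 were highest, against 8 of the 9 members and 37.1% of all genes. No test of this difference was made, since both lists rest on the same 4 arrays.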

How the data were processed

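The labels put all 4 arrays in 1 group, and the headers put them on 1 slide. The authors read the arrays with Agilent Feature Extraction, version 11.0.1.1 per the submitters' processing notes. Deposited values are intensities (processed signal; raw medians of spot and background) and flags coded 0 or 1. Per the file headers, replicates 2 and 4 had the verdict ExtractionEvaluate, and the design names rn4, so no probe coordinates are printed.

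Control spots (4259) and outlier spots (491 to 828 per array) were dropped, and deposited processed signals were averaged per probe as log2. A probe passed if at least 0.5 of its spots did. RefSeq (GRCr8) gave 21109 of 45598 probes 1 symbol; 24489 are unnamed here. Where a gene had several probes, the brightest was used. Pearson's r between arrays, across genes, was 0.975 to 0.986. No test was made with 1 group; the number of arrays limits precision.

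The text names the members, the first 3 measured genes of each list, of which some are not reported here, and genes that spell out a small count. Members and lists were chosen with earlier results of these data known. Alternatives covered scaling, background flag and correction, probes, outlier spots and replicates; normexp (offset 50) on median signals used limma 3.58.1 in R 4.3.3, and Python 3.11.15 the rest. Procedures were tested on simulated data. A comparison of member proteins and one between probes of a member were planned and not made, for want of protein sequences used here and because each member has 1 probe.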

Additional observations from a re-analysis of the deposited data

How the results depend on the processing

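No paired analysis was possible because all samples form 1 group. The count of 9 members above background was the same with the looser background flag and with outlier spots kept. It was also the same with 3 of 4 arrays, with all probes of a gene and without any 1 replicate. These last settings could not change it, since each member has 1 probe, the 9 passed on every array and Ctsk on none. The median SD of the members, 0.23, was 0.45 without scaling and lay between 0.18 and 0.29 when a replicate was left out. Over all genes it was 0.38 without scaling and between 0.20 and 0.24 when a replicate was left out. With normexp on the median signal it was 0.28 for the members and 0.19 for all genes, and all genes still shifted between arrays. The median deviations on replicates 1, 3 and 4 were 0.41, -0.51 and -0.066 without scaling, where all genes moved alike, and that on replicate 1 was 0.19 with normexp on the median signal. Without 1 replicate they lay between -0.17 and -0.03 on replicate 1, 0.04 and 0.13 on replicate 2, -0.16 and -0.11 on replicate 3 and 0.14 and 0.23 on replicate 4. Among the lists, the cystatins had 2 genes above background with the looser flag in place of 1. With this flag the other lysosomal peptidases had 6 in place of 5 and lysosomal transcription control 7 in place of 6. The lysosomal hydrolases and membrane proteins had 20 in place of 19. The 75th percentile over detected probes lies higher than that over all probes, so levels relative to it are lower for every gene. The cause of these shifts was not tested beyond the scaling itself. Subtraction of neighbouring spots was chosen after seeing the data. Signal over background limits Ctsk alone among the members.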
